A study of Mus musculus with 12 samples.

Results

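The prehypertrophic zone of the mouse growth plate was compared with the proliferative zone next to it, using the 4 samples titled for the first zone and the 4 titled for the second, 8 of the 12 samples of the series. All samples were RNA of femoral growth plate cartilage from 14-day-old Swiss White mice with no stated treatment or genotype. The labels name the zone of each sample but not how zones were separated, and do not say if each sample was a different animal, so the errors and p-values below may measure only technical spread. Each of 6 two-colour Agilent arrays held samples of a pair of zones. Arrays 5 and 6 paired the prehypertrophic with the proliferative zone directly, with dyes exchanged (prehypertrophic and proliferative replicates 3 and 4). Arrays 1 to 4 linked replicates 1 and 2 of these zones through the 4 samples of the hypertrophic zone, so the direct and the indirect path had no sample in common.

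In the growth plate, round resting chondrocytes feed columns of flat dividing cells, which stop dividing as they become prehypertrophic and then enlarge. Prehypertrophic cells secrete Indian hedgehog, which drives division of their neighbours and keeps up parathyroid hormone-related protein (PTHrP) near the joint, and PTHrP acting on its receptor delays the exit. Fibroblast growth factors, bone morphogenetic proteins, Wnt proteins, C-type natriuretic peptide and insulin-like growth factors adjust the pace of division and enlargement. In a bulk sample, fewer cells of a type and less RNA per cell cannot be told apart.

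A change below is the log2 ratio of the prehypertrophic over the proliferative zone in limma's fit to all 6 arrays, with its standard error (SE, 4 samples per zone). It passed the test at a Benjamini-Hochberg adjusted p under 0.05 over all 27173 features tested. A level is the log2 signal of a sample over the 75th percentile of that sample, given for replicates 1 to 4 in order. In each sample 92.6% to 96.2% of spots passed the scanner software's test against background, and levels correlated at 0.965 to 0.979 between prehypertrophic samples, at 0.964 to 0.977 between proliferative samples and at 0.932 to 0.964 across these zones (over genes, which are not independent replicates). The number of arrays limits the precision. Over all features 23.4% passed as higher and 22.5% as lower, 45.9% in all, the median change was 0.02, and 3.27% passed as at least 2-fold higher and 4.41% as at least 2-fold lower. Levels of the zones did not overlap in 29.5% of the 23917 features measured in every sample, with the prehypertrophic zone higher in 13.4% and lower in 16.1%. A share of 45.9% makes a pass alone unremarkable, so sizes, per-sample levels and list medians are given throughout. Each gene is represented by its brightest probe, and where the mean over its probes differs by over 1.5 times or in sign, that value is given as "probes averaged".

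Markers of other tissues had overlapping mean levels, while single members differed. The mean level of 10 measured erythroid genes lay between -1.19 and -0.07 in prehypertrophic samples and between -1.13 and -0.10 in proliferative samples, and that of 20 leukocyte genes between -1.20 and -0.47 against -1.39 and -0.64. In hypertrophic samples these ran from 1.66 to 2.36 and from 1.55 to 1.70. Endothelial genes lay between -1.67 and -1.31 in prehypertrophic samples and between -1.67 and -1.39 in proliferative samples, osteoclast genes between -0.70 and -0.09 against -0.55 and -0.13, and genes of perichondrium, muscle, tendon and nerve between -1.94 and -1.75 against -1.92 and -1.76. None of these genes was below background in all 4 samples of either zone. Of the 10 erythroid genes 1 rose and 1 fell, of 20 leukocyte genes 3 rose and 2 fell, and of 15 endothelial genes 3 rose and 2 fell. Of 14 osteoclast genes 2 rose and 4 fell (42.9% passed), and of 18 genes of perichondrium, muscle, tendon and nerve 2 rose and 2 fell. The members that passed past 0.5 included the red-cell membrane protein Epb42 (-1.02 ± 0.14, overlapping levels, -0.36 with probes averaged), the leukocyte phosphatase Ptprc (0.61 ± 0.07, but -0.04 with its probes averaged) and the VEGF receptor Flt1 (0.81 ± 0.07). The others were the osteoclast genes Ctsk, a collagen-cleaving cathepsin (-1.12 ± 0.18, overlapping levels, not passed without array 5), Dcstamp, which acts in cell fusion (-0.79 ± 0.03), and Tcirg1, a proton pump subunit (-0.57 ± 0.05). Among the last list they were the platelet-derived growth factor receptor Pdgfra (-1.23 ± 0.05, -0.65 with probes averaged) and the muscle troponin Tnnt3 (-1.08 ± 0.12). Their part in the results below was not tested.

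**Figure D1:**
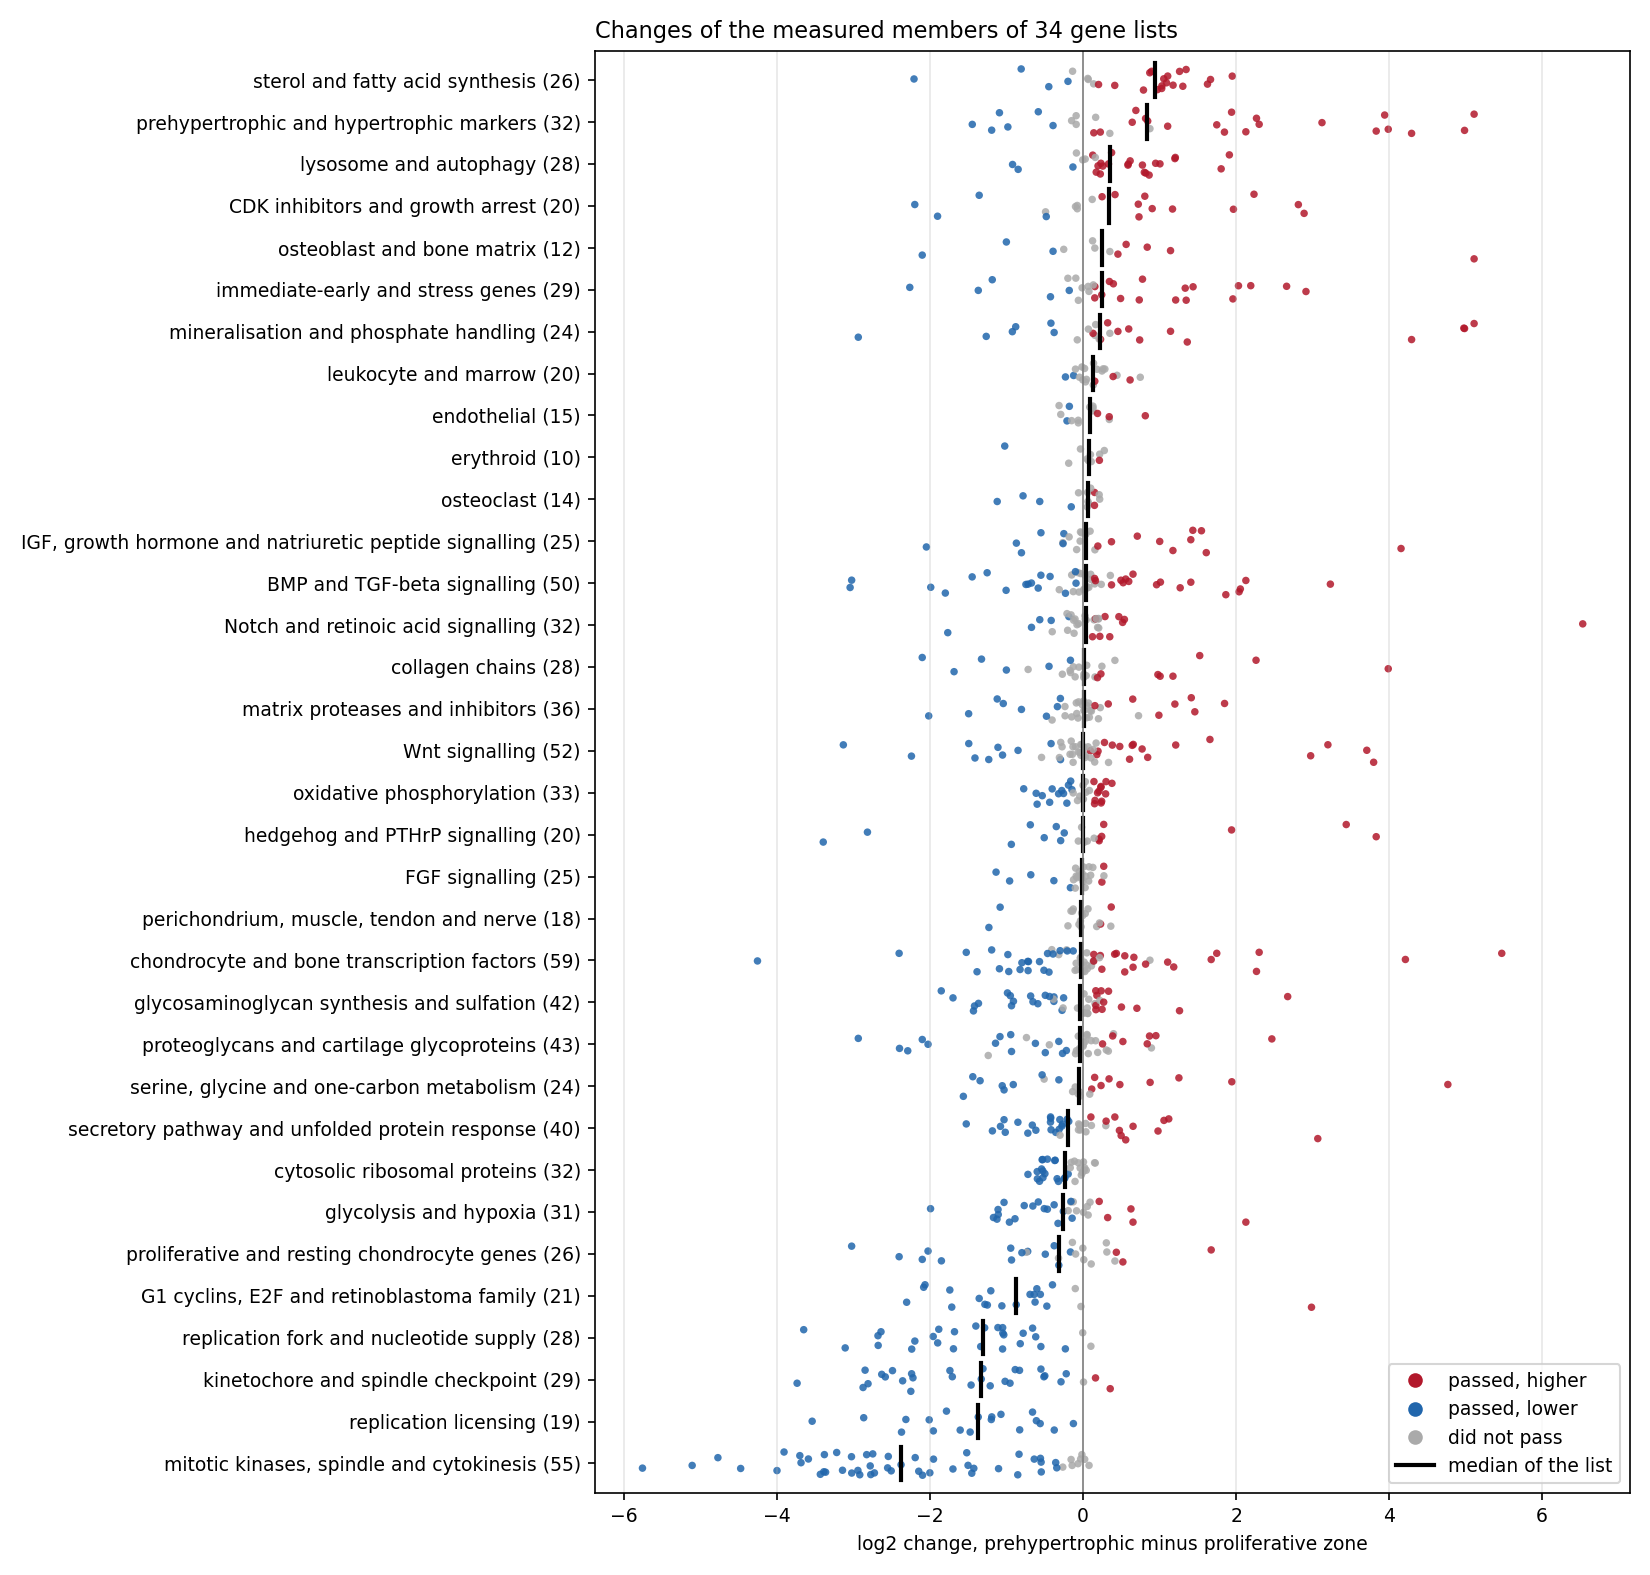
Log2 change (prehypertrophic minus proliferative zone) of every measured member of 34 gene lists, 1 point per gene, with the number of members in brackets and a black bar at the list's median. Red points passed as higher, blue points passed as lower and grey points did not pass. Mitotic genes have the lowest median (-2.38) and sterol synthesis genes the highest (0.93).

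Genes of DNA replication and of mitosis were lower in the prehypertrophic zone. Of 19 measured genes that license replication origins 19 fell, with a median change of -1.37, and 13 of them fell at least 2-fold, against 22.5% and 4.41% of all features. Of 28 genes of the replication fork and nucleotide supply 26 fell (median -1.31), of 29 kinetochore and checkpoint genes 26 fell (median -1.33), and of 55 genes of mitotic kinases, spindle and cytokinesis 47 fell (median -2.38). Levels of the zones did not overlap in 17 of the 19 licensing genes and 25 of the 28 fork genes. The same held for 24 of the 29 kinetochore genes and 45 of the 55 mitotic genes. Over all features measured in every sample the share was 29.5%.

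Mcm3, a subunit of the replicative helicase, had levels of -0.41, -0.71, -0.70 and -0.62 in prehypertrophic samples, against 3.16, 2.92, 3.07 and 2.67 in proliferative samples. All prehypertrophic samples lay below all proliferative ones, and the change was -3.54 ± 0.06 (adjusted p 4.1e-05, limma), or -2.25 with probes averaged. Its partner Mcm2 changed by -2.87 ± 0.03, and geminin (Gmnn), which blocks relicensing after replication has started, by -2.37 ± 0.07. The ribonucleotide reductase subunit Rrm2 had levels of -0.60, -1.43, -1.27 and -1.01 in prehypertrophic samples and 2.85, 2.65, 2.63 and 2.41 in proliferative samples, without overlap. It fell by 3.65 (SE 0.13), the leading-strand polymerase subunit Pole by 3.11 (SE 0.08, -1.51 with probes averaged) and Uhrf1, which carries DNA methylation through replication, by 2.68 (SE 0.07). Only Rfc1 (-0.01 ± 0.18), the large clamp-loader subunit, and Pola2 (0.10 ± 0.09, -0.08 with probes averaged), a subunit of DNA polymerase alpha, did not pass among the fork genes measured.

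The largest fall of any gene was that of Aurkb, the kinase of the chromosomal passenger complex that corrects chromosome attachment and acts in cytokinesis. Aurkb had levels of -3.89, -3.82, -3.73 and -3.70 in prehypertrophic samples, against 2.25, 1.94, 2.15 and 1.78 in proliferative samples. The zones stood far apart with little spread in either, and the change was -5.76 ± 0.06 (adjusted p 3.88e-05, limma). Ect2, the exchange factor that activates RhoA at the cleavage furrow, had levels of -3.51, -3.58, -4.14 and -3.29 in prehypertrophic samples and 1.65, 1.57, 1.44 and 1.31 in proliferative samples, a change of -5.11 ± 0.16 without overlap. The mitotic kinase Pbk fell by 4.77 (SE 0.04), the spindle protein Spag5 by 4.48 (SE 0.36), the kinetochore coupler Ska1 by 4.27 (SE 0.07) and Hmmr, a hyaluronan-binding spindle protein, by 4.00 (SE 0.05). Spag5 was lowest in prehypertrophic replicate 4 (-5.54, against -3.64 to -3.22 in the other prehypertrophic samples). Averaging all kept probes of a gene gave -2.53 for Ect2, -2.26 for Spag5, -2.40 for Ska1 and -2.40 for Hmmr.

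The proliferation antigen Mki67 fell but stayed among the brighter genes of the prehypertrophic zone. Its levels were 1.96, 1.39, 1.36 and 1.45 in prehypertrophic samples, all above the 75th percentile of those samples, against 5.25, 4.96, 5.15 and 4.97 in proliferative samples. The zones did not overlap (-3.59 ± 0.09, adjusted p 5.9e-05, limma), and prehypertrophic replicate 1 was the highest of its zone. Cenpa, the histone variant that marks centromeres, had levels of -0.57, -0.41, -0.73 and -0.43 in prehypertrophic samples and 3.63, 3.38, 3.07 and 3.10 in proliferative samples, without overlap (-3.74 ± 0.05, -1.80 with probes averaged). The checkpoint kinase Bub1b changed by -2.88 ± 0.05 and the Ndc80 complex member Nuf2 by -2.85 ± 0.17 (-1.56 with probes averaged). Among kinetochore genes Bub1 (0.01 ± 0.03) did not pass, while Sgo1, a protector of cohesin (0.16 ± 0.03), and Cenpt, a centromere protein (0.35 ± 0.05), rose. For Bub1 and Sgo1 this rests on the brightest probe, since the mean over their probes was -2.39 and -1.17. The mean over probes of topoisomerase Top2a, 1 of the 8 mitotic genes that did not pass (0.02 ± 0.05), was -1.19. These exceptions were named after their values were seen.

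Promoters of several of these genes are shown because cell cycle genes are known to carry control letters just upstream of their start sites. The cell cycle homology region (TTTGAA), known as a site of the MuvB complex that represses mitotic genes in resting cells, and an E2F site (TTCCCGC), known from replication genes, were searched on both strands in 250 bases upstream of RefSeq start sites. Of 15390 tested genes with a promoter, 15.5% held the first and 6.19% the second. The homology region was found in 19 of 44 promoters of the mitotic list (43.2%), in 3 of 27 of the kinetochore list (11.1%), in 3 of 25 of the fork list (12%) and in 4 of 14 of the licensing list (28.6%). The E2F letters were found in 0 of 44 mitotic promoters, in 5 of 27 kinetochore promoters (18.5%), in 7 of 25 fork promoters (28%) and in 4 of 14 licensing promoters (28.6%). A match is a description and not a binding site, and neither string overlaps the other. The genes below were chosen after their matches and values were seen. Sequences are from RefSeq, build GRCm38.p6, read 5′ to 3′ along the gene's strand, with the match in capitals, which in Ube2c is on the other strand (TTCAAA).
Cdk1: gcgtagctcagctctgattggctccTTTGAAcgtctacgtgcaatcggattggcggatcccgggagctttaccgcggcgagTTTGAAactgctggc
Cdc20: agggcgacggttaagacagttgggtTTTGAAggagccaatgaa
Ube2c: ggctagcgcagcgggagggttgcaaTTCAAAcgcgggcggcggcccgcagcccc
Prc1: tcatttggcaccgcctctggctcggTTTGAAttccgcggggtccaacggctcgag
Ncapg: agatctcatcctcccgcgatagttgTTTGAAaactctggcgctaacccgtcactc
Rrm1: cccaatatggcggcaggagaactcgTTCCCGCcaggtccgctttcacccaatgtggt
Uhrf1: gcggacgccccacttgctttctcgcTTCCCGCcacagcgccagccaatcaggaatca
Prim1: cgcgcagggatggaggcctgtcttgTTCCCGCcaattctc
Chaf1a: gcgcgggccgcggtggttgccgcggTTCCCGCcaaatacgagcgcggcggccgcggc

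The first 5 belong to mitotic genes. The stretch of Cdk1, the mitotic kinase itself, lies at chr10:69352913-69353008 on the minus strand and holds the homology region at 2 places, and Cdk1 changed by -2.94 ± 0.10 (-1.43 with probes averaged). That of Cdc20, the activator of the anaphase-promoting complex (-2.78 ± 0.09), lies at chr4:118437344-118437386 on the minus strand. The stretch of Ube2c, an enzyme that adds ubiquitin for that complex (-1.70 ± 0.21), lies at chr2:164769875-164769928 on the plus strand. For Prc1, which bundles midzone microtubules (-3.03 ± 0.06), it lies at chr7:80294421-80294475, and for the condensin subunit Ncapg (-3.70 ± 0.10) at chr5:45669870-45669924, both on the plus strand. The other 4 belong to replication genes and lie on the plus strand. They are at chr7:102441603-102441659 for Rrm1, the large ribonucleotide reductase subunit (-1.96 ± 0.03), and at chr17:56303264-56303320 for Uhrf1. The primase subunit Prim1 (-2.64 ± 0.04) has its stretch at chr10:128015175-128015214, and the histone chaperone subunit Chaf1a (-2.20 ± 0.11) at chr17:56040344-56040400. All 9 genes were lower in every prehypertrophic sample than in any proliferative sample.

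Regulators of the G1 phase mostly fell. Of 21 measured G1 cyclins, E2F factors and retinoblastoma family genes 18 fell, 2 did not pass and 1 rose (median -0.87). Cyclin D1 (Ccnd1) had levels of -1.53, -1.26, -0.96 and -0.91 in prehypertrophic samples, against 1.12, 1.01, 1.06 and 0.85 in proliferative samples, without overlap (-2.07 ± 0.12). Its kinase Cdk6 fell by 2.08 (SE 0.14; -0.68 with probes averaged) and E2f8, a repressor of the E2F family, by 2.31 (SE 0.04). The 1 gene that rose was the retinoblastoma gene Rb1, whose protein holds E2F factors inactive. Rb1 had levels of 4.60, 4.65, 4.64 and 4.48 in prehypertrophic samples, against 1.86, 1.66, 1.62 and 1.43 in proliferative samples. The zones were separated by far more than the spread within either, and the change was 2.99 ± 0.02 (adjusted p 3.88e-05, limma), with 2.98 and 3.01 on the direct arrays and 2.96 along the indirect path.

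Of 20 measured inhibitors of cyclin-dependent kinases and growth arrest genes 11 rose, 4 fell and 5 did not pass (median 0.33). Cdkn1a (p21) had levels of 2.62, 2.29, 2.17 and 2.13 in prehypertrophic samples and 0.09, -0.32, -0.71 and -0.79 in proliferative samples, without overlap (2.81 ± 0.07). Cdkn1c (p57), an inhibitor needed for the exit of chondrocytes from division, had levels of 6.63, 7.25, 7.13 and 5.77 in prehypertrophic samples, against 5.26, 4.70, 5.23 and 3.98 in proliferative samples. It rose by 1.96 (SE 0.17) without overlap, and since its spot was saturated in 3 prehypertrophic samples that value is compressed. The p53 target Trp53inp1 rose by 2.89 (SE 0.06, 1.87 with probes averaged) and Gadd45b, a stress-induced growth arrest gene, by 2.23 (SE 0.03). The 4 that fell were the phosphatase Cdkn3 (-2.20 ± 0.03, -1.44 with probes averaged), which peaks in dividing cells, Gadd45g (-1.90 ± 0.04), the CDK4/6 inhibitor Cdkn2d (-1.36 ± 0.03) and its relative Cdkn2c (-0.48 ± 0.04), the last named after its value was seen.

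**Figure D2:**
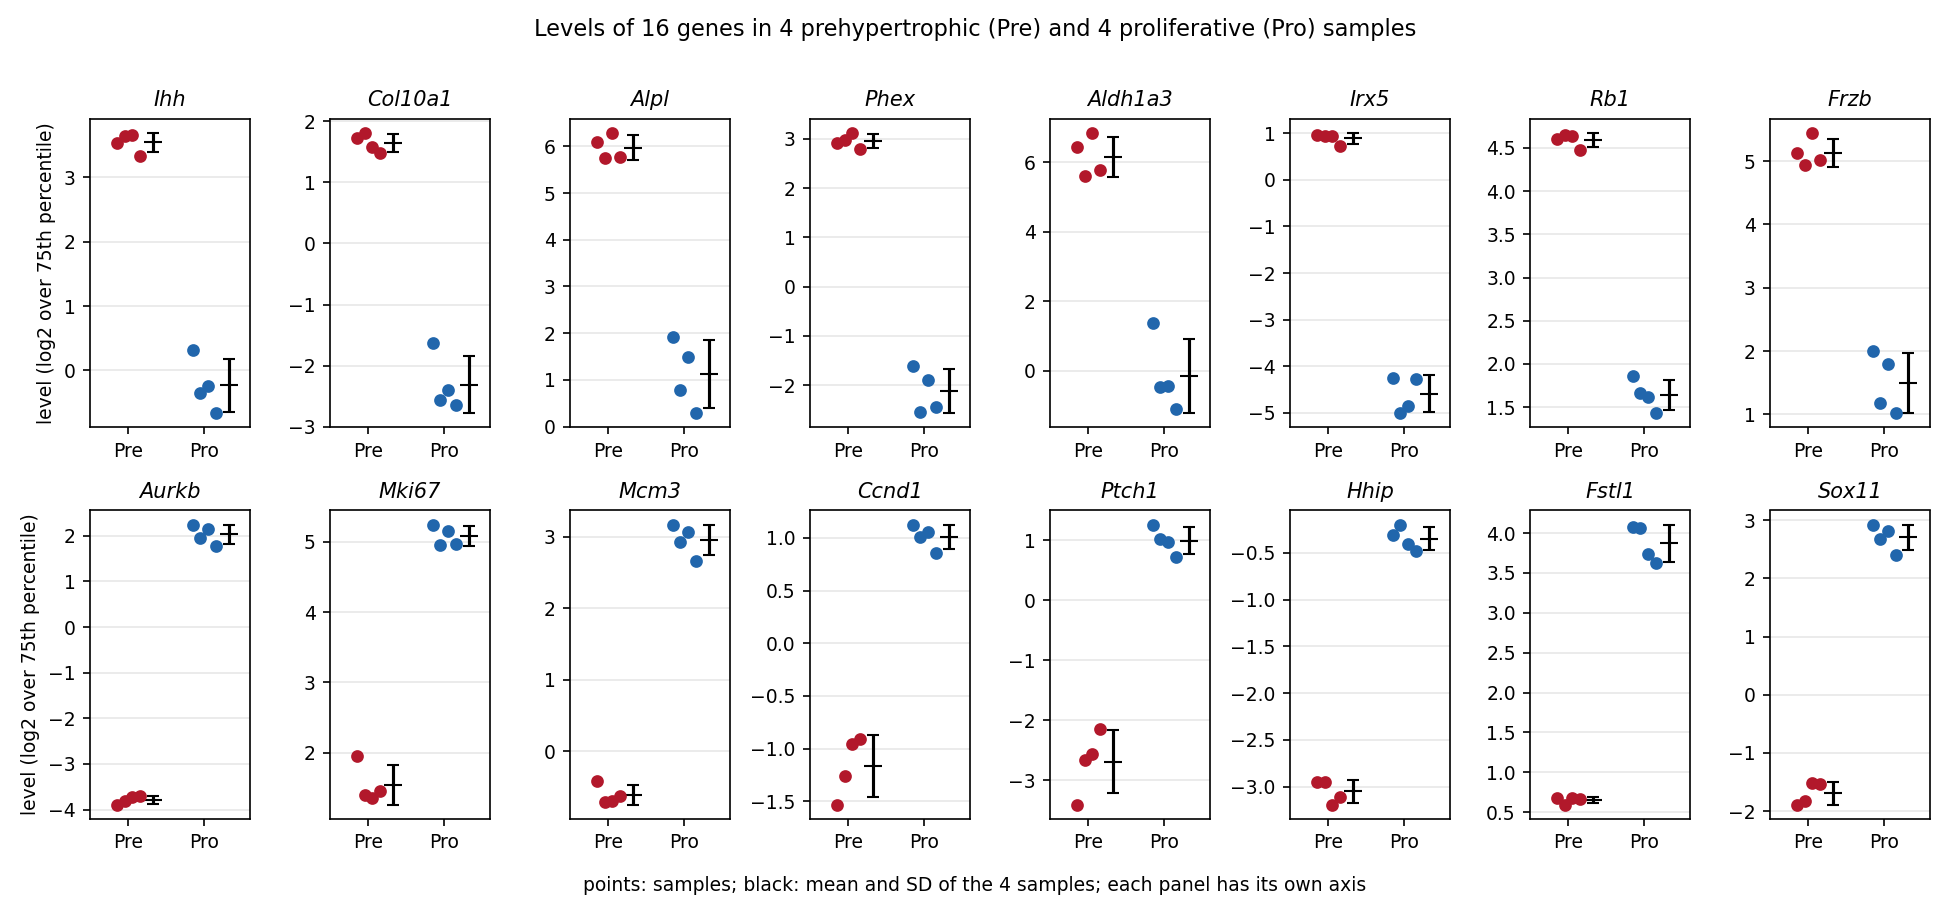
Level (log2 over the sample's 75th percentile) of 16 genes in the 4 prehypertrophic (Pre, red) and 4 proliferative (Pro, blue) samples, with the mean and SD in black and a separate axis for each gene. The top row holds genes that rose and the bottom row genes that fell, and in all 16 panels the zones do not overlap.

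Markers of prehypertrophic and early hypertrophic cells were mostly higher. Their list was written with earlier results of these data known, so it is no independent check of the zone labels. Of 32 measured markers 20 rose, 6 fell and 6 did not pass (median 0.83), and 14 rose at least 2-fold. Indian hedgehog (Ihh), the secreted signal by which the zone is defined, had levels of 3.53, 3.64, 3.65 and 3.34 in prehypertrophic samples, against 0.32, -0.35, -0.24 and -0.66 in proliferative samples. No sample crossed over (3.83 ± 0.10, adjusted p 6.55e-05, limma), and the change was 2.43 with probes averaged. Col10a1, the collagen of hypertrophic cartilage, had levels of 1.73, 1.80, 1.57 and 1.48 in prehypertrophic samples and -1.62, -2.57, -2.39 and -2.65 in proliferative samples, again without overlap (3.99 ± 0.13). The transcription factor Mef2c, needed for hypertrophy, rose by 2.30 (SE 0.06) with 1 saturated prehypertrophic sample.

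Several genes of mineral formation were among the largest rises. Alpl, the phosphatase that frees phosphate for mineral, had levels of 6.09, 5.75, 6.28 and 5.76 in prehypertrophic samples, 1 of them saturated, against 1.92, 0.77, 1.49 and 0.29 in proliferative samples (4.99 ± 0.12, no overlap). Phex, an endopeptidase whose loss causes phosphate wasting, had levels of 2.91, 2.99, 3.12 and 2.79 in prehypertrophic samples and -1.61, -2.55, -1.89 and -2.44 in proliferative samples (5.11 ± 0.11, no overlap). The annexin Anxa3 had levels of 3.88, 3.93, 4.13 and 3.81 in prehypertrophic samples, against -0.58, -1.18, -0.90 and -1.21 in proliferative samples (4.98 ± 0.07). In these 3 genes the spread within a zone was small beside the gap between zones. Of 24 genes of mineralisation and phosphate handling 12 rose, 6 fell and 6 did not pass (median 0.22). Mgp, an inhibitor of mineral in cartilage, had levels of 3.56, 2.54, 2.74 and 3.12 in prehypertrophic samples and 6.20, 5.57, 5.89 and 6.01 in proliferative samples, 2 of these saturated. It fell by 2.94 (SE 0.10) without overlap. The calcium channel Trpv4 (-1.27 ± 0.02) and the secreted kinase Fam20c (-0.93 ± 0.09) also fell. Osteocalcin (Bglap) rose by 1.14 (SE 0.04), while Col1a2, a bone collagen chain, fell by 1.00 (SE 0.10). Of 12 bone matrix genes 5 rose and 3 fell, 2 of these falls at least 2-fold, and the lowest change was -2.10.

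Not every marker rose. Mmp13, the collagenase of the lowest hypertrophic cells, had levels of 0.19, -1.03, -2.32 and -2.92 in prehypertrophic samples and 0.05, -1.0, -2.27 and -2.48 in proliferative samples. The zones overlapped (-0.15 ± 0.26, adjusted p 0.686, limma), while replicates 1 and 2 of both zones, which shared arrays with hypertrophic samples, lay above replicates 3 and 4. Ccn2, a connective tissue growth factor, fell by 1.45 (SE 0.08), the deacetylase Hdac4, which restrains hypertrophy by binding Mef2 and Runx2 proteins, by 1.20 (SE 0.13), and the zinc finger protein Zfp521, another Runx2 partner, by 1.09 (SE 0.04). Runx2 and Spp1 were not analysed here.

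The cartilage genes of the younger cells split. Of 26 measured genes of proliferative and resting chondrocytes 13 fell, 3 rose and 10 did not pass (median -0.32). Sox9 (-0.00 ± 0.04, adjusted p 0.955, limma), the master factor of chondrocytes, had levels of 5.91, 6.13, 5.79 and 5.77 in prehypertrophic samples and 6.27, 6.09, 5.88 and 5.57 in proliferative samples, with 1 saturated sample in each zone. Its levels overlapped, whereas its partner Sox5 had levels of -1.61, -1.35, -1.59 and -1.44 in prehypertrophic samples and 1.17, 1.16, 0.90 and 0.84 in proliferative samples, a fall of 2.41 (SE 0.07) without overlap. For Sox5 the mean over probes was -0.79. For Sox9 it was 0.24 and passed as higher (adjusted p 0.00707, limma), so the reading of Sox9 depends on the probe. Gdf10, a secreted protein of the TGF-beta family, had levels of 0.99, 1.1, 1.02 and 1.06 in prehypertrophic samples and 4.58, 4.52, 4.30 and 4.25 in proliferative samples. It fell by 3.03 (SE 0.19) with no overlap. Ucma, a small matrix protein of upper zone chondrocytes, had levels of 2.92, 3.20, 3.31 and 3.93 in prehypertrophic samples, against 6.29, 6.79, 5.89 and 6.56 in proliferative samples, 2 of these saturated. The levels did not overlap, but Ucma changed by -2.62 and -2.66 on the direct arrays and by -1.03 along the indirect path, and its fit (-2.10 ± 0.39, adjusted p 0.0138, limma) did not pass without array 5 (-1.89, adjusted p 0.0855) or without array 6 (-1.60, adjusted p 0.0526). Trps1, a GATA-type repressor, was among the 3 that rose (1.67 ± 0.05).

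The hedgehog pathway showed its ligand and its receptors in opposite zones. Of 20 measured genes of hedgehog and PTHrP signalling 7 rose, 8 fell and 5 did not pass (median -0.00). Beside Ihh stood Disp1, the transporter that releases lipid-bound hedgehog proteins, with levels of 3.30, 3.46, 3.43 and 3.13 in prehypertrophic samples against 0.13, -0.41, 0.12 and -0.39 in proliferative samples (3.44 ± 0.06, no overlap). The PTHrP receptor Pth1r had levels of 6.53, 6.27, 6.22 and 5.77 in prehypertrophic samples, 1 of them saturated, and 4.58, 4.25, 4.34 and 3.79 in proliferative samples (1.94 ± 0.06, no overlap). Ptch1, the hedgehog receptor and itself a known target of the pathway, had levels of -3.41, -2.66, -2.56 and -2.14 in prehypertrophic samples, against 1.26, 1.02, 0.96 and 0.72 in proliferative samples. All its prehypertrophic levels were lower (-3.40 ± 0.18, adjusted p 0.000297, limma), with a change of -1.75 when its probes were averaged. Hhip, a decoy receptor and likewise a known target, had levels of -2.95, -2.95, -3.19 and -3.11 in prehypertrophic samples and -0.31, -0.20, -0.40 and -0.48 in proliferative samples (-2.82 ± 0.09, no overlap). The transcription factor Gli2 fell by 0.94 (SE 0.10, -0.49 with probes averaged). Gli1, the third known target, had low and overlapping levels, between -2.11 and -1.80 in prehypertrophic samples and between -2.17 and -1.79 in proliferative samples (-0.06 ± 0.03, adjusted p 0.202, limma). So of the target genes Ptch1 and Hhip passed and Gli1 did not.

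**Figure D3:**
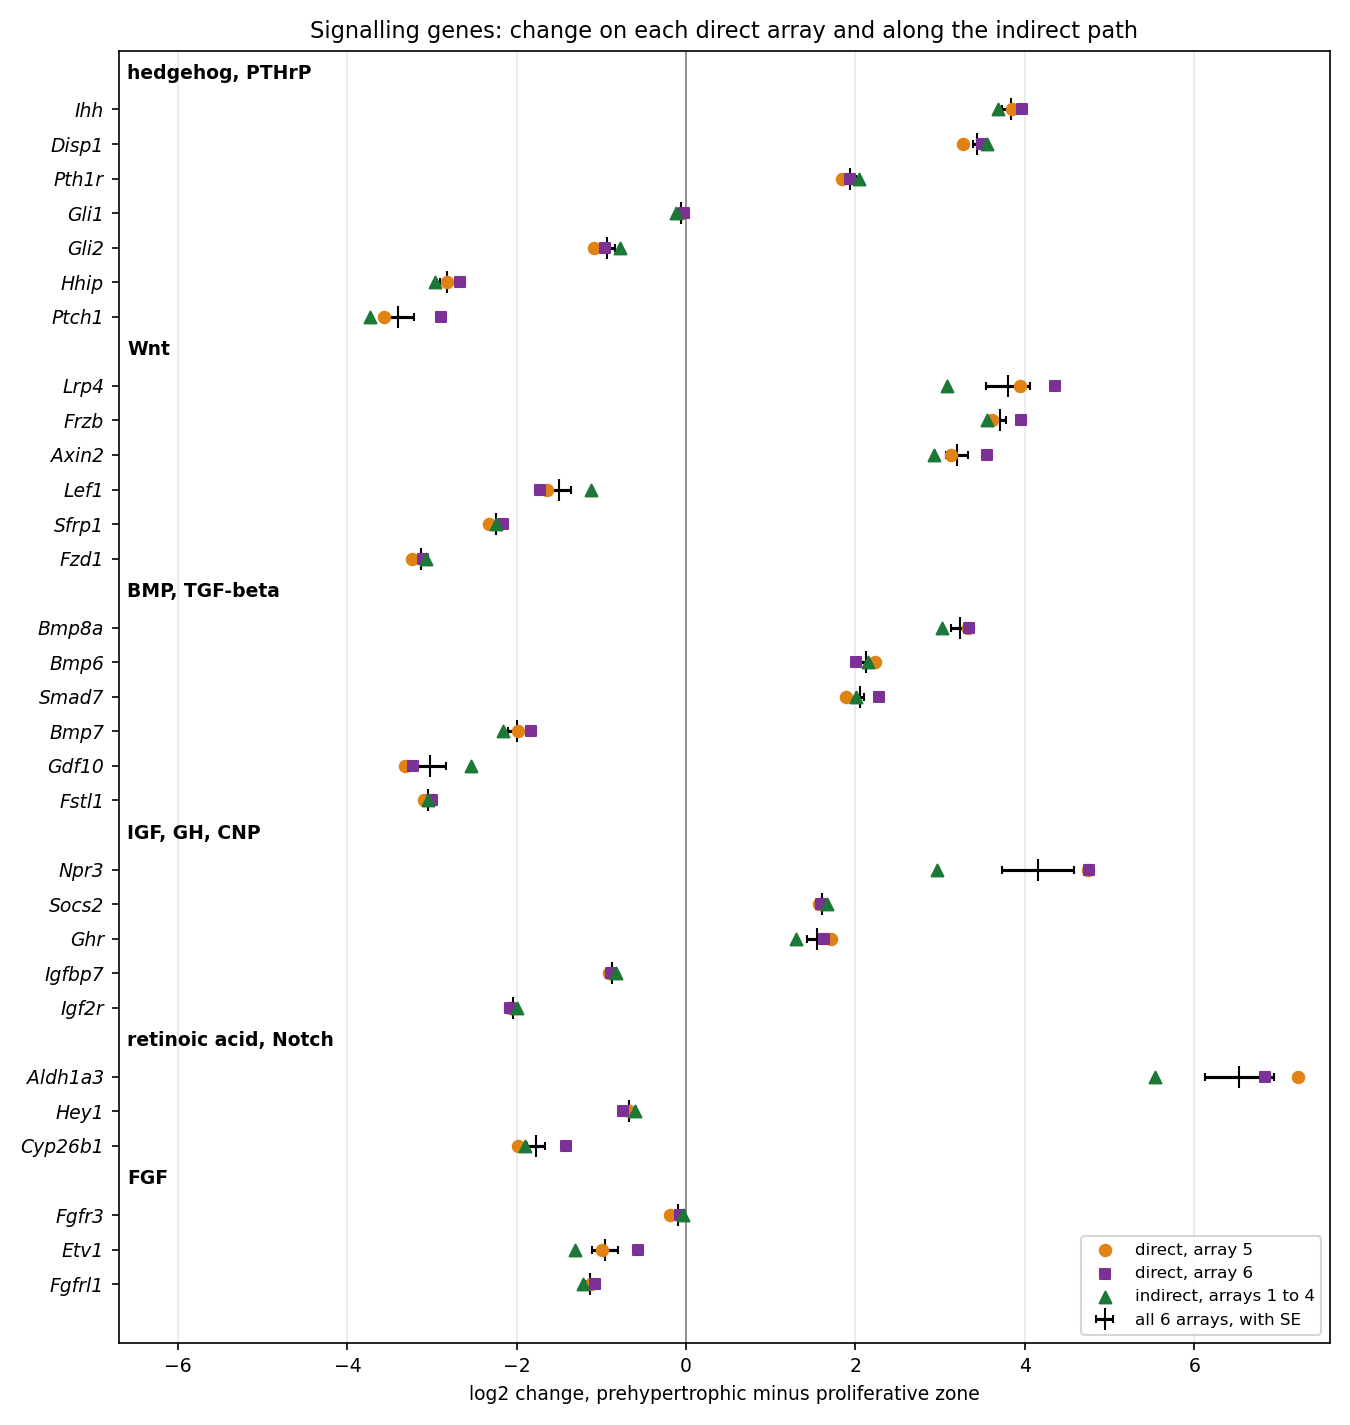
Log2 change (prehypertrophic minus proliferative zone) of signalling genes, grouped by pathway, on direct array 5 (orange circle), direct array 6 (violet square) and along the indirect path of arrays 1 to 4 (green triangle), with the fit to all 6 arrays and its SE in black. Ihh, Disp1 and Pth1r lie to the right of 0 and Ptch1, Hhip and Gli2 to the left in all readings, and Npr3 and Aldh1a3 show the widest gap between paths.

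In the Wnt pathway secreted inhibitors and receptors changed in both directions. Of 52 measured genes 17 rose, 10 fell and 25 did not pass (median 0.00), and the 51.9% that passed is near the 45.9% of all features. Frzb, a secreted decoy for Wnt proteins, had levels of 5.12, 4.94, 5.44 and 5.01 in prehypertrophic samples and 2.00, 1.18, 1.79 and 1.02 in proliferative samples (3.71 ± 0.07, no overlap). Its relative Sfrp1 went the other way, with levels of -1.27, -1.24, -0.94 and -0.89 in prehypertrophic samples and 1.52, 1.5, 1.35 and 1.24 in proliferative samples (-2.24 ± 0.12, no overlap, -1.39 with probes averaged). Axin2, a scaffold that limits beta-catenin and a known target of the pathway, had levels of 0.16, 0.37, 0.41 and -0.09 in prehypertrophic samples, against -2.15, -3.05, -2.75 and -3.68 in proliferative samples (3.20 ± 0.13, no overlap). The Wnt receptor Fzd1 had levels of -1.06, -0.86, -0.95 and -1.11 in prehypertrophic samples and 2.40, 2.25, 2.24 and 1.95 in proliferative samples, and fell by 3.13 (SE 0.08). Lrp4, a receptor for secreted Wnt inhibitors, had levels of 3.43, 3.49, 3.31 and 3.25 in prehypertrophic samples and 0.96, 0.00, -0.68 and -1.15 in proliferative samples (3.80 ± 0.26, no overlap, 1.84 with probes averaged). The beta-catenin partner Lef1 fell by 1.49 (SE 0.13), but with its probes averaged it gave -0.20 and did not pass.

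Genes of the bone morphogenetic protein (BMP) pathway changed in both directions. Of 50 measured genes of BMP and TGF-beta signalling 17 rose, 16 fell and 17 did not pass (median 0.03). The ligand Bmp8a had levels of 2.57, 2.68, 2.35 and 2.39 in prehypertrophic samples and 0.05, -0.59, -1.02 and -0.99 in proliferative samples (3.23 ± 0.11), and Bmp6 had 2.05, 2.13, 2.00 and 1.83 in prehypertrophic samples against 0.37, -0.33, -0.26 and -0.21 in proliferative samples (2.13 ± 0.09, 1.28 with probes averaged). Bmp7 had levels of -1.12, -0.80, -0.73 and -0.70 in prehypertrophic samples and 1.29, 1.33, 1.22 and 1.09 in proliferative samples (-1.99 ± 0.11). None of these 3 ligands overlapped between zones, with Bmp8a and Bmp6 high in the prehypertrophic and Bmp7 high in the proliferative zone. Fstl1, a secreted BMP antagonist, had levels of 0.68, 0.59, 0.68 and 0.66 in prehypertrophic samples and 4.08, 4.07, 3.73 and 3.62 in proliferative samples (-3.05 ± 0.02). The inhibitory Smad7 had levels of 1.04, 1.18, 1.17 and 0.97 in prehypertrophic samples and -0.66, -1.06, -0.76 and -1.35 in proliferative samples (2.06 ± 0.05). Both were separated in all samples.

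A natriuretic peptide receptor and a pair of growth hormone genes rose, and most FGF genes did not pass. Of 25 measured genes of the insulin-like growth factor, growth hormone and natriuretic peptide pathways 10 rose, 6 fell and 9 did not pass (median 0.04). Npr3, the clearance receptor that removes C-type natriuretic peptide, had levels of 0.86, 0.92, 0.36 and 0.35 in prehypertrophic samples and -1.49, -2.43, -4.43 and -4.44 in proliferative samples. The zones did not overlap (4.16 ± 0.43, adjusted p 0.00218, limma), but proliferative replicates 1 and 2, which were on arrays with hypertrophic samples, lay above replicates 3 and 4. Its change was 4.75 and 4.76 on the direct arrays and 2.96 along the indirect path. The part of the array partner in this difference was not tested. The growth hormone receptor Ghr rose by 1.55 (SE 0.12, 1.01 with probes averaged) and its feedback inhibitor Socs2 by 1.61 (SE 0.03). Igf2r, the receptor that clears IGF2, had levels of 1.65, 1.83, 1.88 and 1.64 in prehypertrophic samples and 4.00, 3.90, 3.91 and 3.68 in proliferative samples (-2.05 ± 0.03, no overlap). Igfbp7, an IGF-binding protein, fell by 0.87 (SE 0.03). Of 25 FGF genes 5 fell, 2 rose and 18 did not pass, a share of passes below the background of 45.9%. Fgfr3, the receptor that restrains chondrocyte division, had levels of 2.37, 2.53, 2.6 and 2.40 in prehypertrophic samples and 2.76, 2.61, 2.74 and 2.44 in proliferative samples, which overlapped (-0.10 ± 0.04, adjusted p 0.0927, limma, 0.09 with probes averaged). Fgfrl1, an FGF receptor without a kinase, fell by 1.14 (SE 0.04), the ETS factor Etv1 by 0.96 (SE 0.15, not passed on the direct arrays alone or without array 5) and the Ras pathway inhibitor Spred2 by 0.68 (SE 0.05).

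The largest rise of any gene was in retinoic acid synthesis. Aldh1a3, an enzyme that makes retinoic acid, had levels of 6.43, 5.61, 6.84 and 5.77 in prehypertrophic samples, 1 of them saturated, against 1.38, -0.45, -0.42 and -1.10 in proliferative samples. No sample crossed over (6.53 ± 0.41, adjusted p 0.000465, limma), and proliferative replicate 1 was the highest of its zone. Proliferative replicates 1 and 2 were both hybridised beside a hypertrophic sample, but replicate 2 (-0.45) lay close to replicate 3 (-0.42), which was not. The part of the array partner was not tested. The change was 7.22 and 6.83 on the direct arrays and 5.54 along the indirect path. Cyp26b1, which degrades retinoic acid, had levels of -1.24, -1.18, -1.07 and -0.69 in prehypertrophic samples and 0.93, 0.82, 0.87 and 0.69 in proliferative samples (-1.77 ± 0.11, no overlap). The synthesis genes Rdh10 (0.52 ± 0.04, 1.55 with probes averaged) and Aldh1a1 (0.54 ± 0.06) also rose. On the direct arrays alone neither passed in limma (adjusted p 0.0560 for Rdh10 and 0.0595 for Aldh1a1), nor did Aldh1a1 on the indirect arrays alone (0.0588). Of 32 measured Notch and retinoic acid genes 9 rose, 5 fell and 18 did not pass (median 0.03), a share of passes near the 45.9% of all features. The Notch target Hey1 (-0.67 ± 0.04) and the receptor Notch2 (-0.57 ± 0.04, -0.14 with probes averaged) fell.

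Among 59 measured transcription factors of cartilage and bone 19 rose, 21 fell and 19 did not pass (median -0.03). Irx5, an Iroquois homeobox factor, had levels of 0.97, 0.94, 0.94 and 0.72 in prehypertrophic samples and -4.24, -5.01, -4.86 and -4.27 in proliferative samples. It rose by 5.47 (SE 0.22) without overlap and was well above background in 3 of the 4 proliferative samples. Epas1, the hypoxia-inducible factor 2 alpha, had levels of 5.15, 4.63, 5.48 and 5.04 in prehypertrophic samples and 1.66, 0.43, 1.11 and 0.58 in proliferative samples (4.21 ± 0.16, no overlap, 2.28 with probes averaged). Sox11, a factor of early skeletal progenitors, had levels of -1.89, -1.84, -1.51 and -1.53 in prehypertrophic samples and 2.92, 2.69, 2.81 and 2.40 in proliferative samples (-4.26 ± 0.08, no overlap, -1.92 with probes averaged). Creb3l2, which activates secretory genes in chondrocytes, fell by 1.53 (SE 0.04, -0.81 with probes averaged).

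Other genes among the 10 largest changes each way belonged to no pathway described so far. The membrane protein Prom1 rose by 5.25 (SE 0.27, 3.03 with probes averaged), Cystm1 by 5.02 (SE 0.12) and Ccdc68 by 4.62 (SE 0.11). The gene 1700025K24Rik was too dim to pass the background test in all 4 proliferative samples, so its rise is a bound of at least 26.1-fold, from group means against the lowest signal above background. The receptor tyrosine kinase Ntrk2 fell by 3.95 (SE 0.14), the matrix-binding receptor Antxr1 by 4.35 (SE 0.10) and Mamdc2 by 4.22 (SE 0.12), all without overlap between zones.

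The main matrix genes did not pass, with saturated spots in both zones, and collagen chains as a list passed about as often as all features. Col2a1, the main cartilage collagen, had levels of 6.62, 7.26, 7.06 and 5.78 in prehypertrophic samples and 6.21, 6.95, 5.88 and 6.76 in proliferative samples, with 3 and 4 of these saturated. Its ratio was 1.14 on array 5 and -1.02 on array 6, and the fit gave 0.15 ± 0.19 (adjusted p 0.561, limma), or -0.01 with probes averaged. Without array 6 it passed at 0.45 (adjusted p 0.0430, limma). With most of its spots saturated in both zones, neither fit of this probe can show if Col2a1 RNA differed. Aggrecan (Acan), the main proteoglycan, had overlapping levels between 5.78 and 6.61 in prehypertrophic samples and between 5.88 and 6.27 in proliferative samples, 2 saturated in each zone (-0.00 ± 0.09, adjusted p 0.999, limma). Of 28 collagen chains 8 rose, 6 fell and 14 did not pass (median 0.01), and the 50% that passed is near the 45.9% of all features. Beside Col10a1 these were led by Col5a2, a chain of fibril-nucleating collagen V, with levels of 2.52, 2.65, 2.64 and 2.27 in prehypertrophic samples and 0.46, 0.35, 0.22 and 0.08 in proliferative samples (2.26 ± 0.03, no overlap), and by the pericellular Col6a2 (1.52 ± 0.05, 0.86 with probes averaged). Col16a1 (-1.69 ± 0.10) and the fibril-associated Col12a1 (-1.33 ± 0.07) fell, but with probes averaged they gave -0.98 and -0.46 and did not pass.

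Of 43 proteoglycans and glycoproteins 7 rose, 14 fell and 22 did not pass (median -0.04), and 48.8% passed against 45.9% of all features. The small proteoglycan Ogn fell by 2.29 (SE 0.10) and the heparan sulfate carrier Sdc1 by 2.40 (SE 0.15). Fibronectin (Fn1) had levels of 1.87, 1.70, 1.5 and 1.24 in prehypertrophic samples and 0.61, -0.52, -1.11 and -1.77 in proliferative samples, separated by 2.47 (SE 0.24) but by 0.78 with its probes averaged. Of 42 genes of glycosaminoglycan synthesis and sulfation 12 rose, 18 fell and 12 did not pass (median -0.04). Slc26a2, the sulfate transporter needed for cartilage sulfation, had levels of 2.93, 3.18, 3.15 and 3.09 in prehypertrophic samples and 5.29, 5.23, 5.19 and 4.99 in proliferative samples (-1.85 ± 0.12, no overlap, -0.80 with probes averaged). Has2, which makes hyaluronan, had 4.47, 4.82, 4.70 and 4.74 in prehypertrophic samples and 2.35, 2.42, 1.99 and 1.97 in proliferative samples (2.67 ± 0.05, no overlap). The chondroitin synthase Chsy1 was saturated in all 4 prehypertrophic samples, so its rise is a bound of at least 2.13-fold. Its levels overlapped at 5.77 in prehypertrophic replicate 4 and 5.96 in proliferative replicate 1, and it did not pass on the indirect arrays alone (adjusted p 0.0584) or by single channels (0.0583, both limma). Of 36 proteases and inhibitors 8 rose and 8 fell. The membrane collagenase Mmp14 fell by 2.02 (SE 0.03, -1.22 with probes averaged) and Timp2, an inhibitor through which it activates Mmp2, by 1.5 (SE 0.07), while Timp3 rose by 1.85 (SE 0.06) and the aggrecan-cleaving Adamts1 by 1.46 (SE 0.07, 0.85 with probes averaged).

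Lipid and amino acid metabolism differed. Of 26 measured genes of sterol and fatty acid synthesis 18 rose, 4 fell and 4 did not pass (median 0.93), and 12 rose at least 2-fold, against 3.27% of all features. Tm7sf2, a sterol reductase, had levels of 2.23, 2.51, 2.61 and 2.16 in prehypertrophic samples and 0.51, 0.54, 0.47 and 0.30 in proliferative samples (1.95 ± 0.04, no overlap). The sterol isomerase Ebp had 3.79, 3.81, 3.78 and 3.5 in prehypertrophic samples and 2.32, 2.23, 2.05 and 1.88 in proliferative samples (1.63 ± 0.03, no overlap), and the demethylating enzyme Nsdhl rose by 1.35 (SE 0.03). The 4 that fell belonged to fatty acid synthesis: the elongase Elovl6 (-2.21 ± 0.05), the regulator Srebf1 (-0.81 ± 0.06), and, named after their values were seen, Fasn (-0.45 ± 0.03) and Acaca (-0.20 ± 0.04, -0.33 with probes averaged).

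Of 24 measured serine, glycine and one-carbon genes 9 rose, 8 fell and 7 did not pass (median -0.06). Gldc, the decarboxylase of the glycine cleavage system, had levels of 1.76, 1.95, 1.91 and 1.57 in prehypertrophic samples, against -2.41, -3.23, -2.91 and -3.21 in proliferative samples (4.77 ± 0.10, no overlap). The glycine transporter Slc6a9 had 2.68, 2.79, 2.72 and 2.37 in prehypertrophic samples and 1.06, 0.64, 0.68 and 0.36 in proliferative samples (1.94 ± 0.05, no overlap). Psat1, which makes serine, fell by 1.57 (SE 0.04), and the folate enzyme Mthfd1 by 1.35 (SE 0.02).

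Of 40 genes of the secretory pathway and the unfolded protein response 11 rose, 20 fell and 9 did not pass (median -0.20). The chaperone Hsp90b1 fell by 1.08 (SE 0.05) and the collagen-modifying Plod2 by 1.19 (SE 0.06). Chac1, a glutathione-degrading enzyme, had levels of 3.65, 3.98, 4.09 and 3.63 in prehypertrophic samples and 0.79, 0.67, 0.96 and 0.68 in proliferative samples (3.07 ± 0.05, no overlap). Asns, asparagine synthetase, had 3.18, 3.39, 3.45 and 3.06 in prehypertrophic samples and 2.32, 2.31, 2.10 and 2.07 in proliferative samples (1.12 ± 0.03, no overlap). Both are known targets of the factor ATF4, and their promoters are shown because they hold the amino acid response letters TGATGNAA (capitals below, TTGCATCA being the other strand), searched in the same window and found in 3.13% of promoters and in 3 of 35 of this list (8.57%). Both genes were chosen after their matches and values were seen, so they do not stand for all targets of ATF4. The stretch of Asns lies at chr6:7693210-7693257 on the minus strand and that of Chac1 at chr2:119351024-119351081 on the plus strand, in RefSeq's build GRCm38.p6.
Asns: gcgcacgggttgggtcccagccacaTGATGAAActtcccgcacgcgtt
Chac1: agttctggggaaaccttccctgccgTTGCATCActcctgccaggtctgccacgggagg

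Lysosome and autophagy genes were mostly higher, with 21 of 28 that rose, 3 that fell and 4 that did not pass (median 0.35). Gabarapl1, a protein that coats autophagosomes, had levels of 5.37, 5.41, 5.70 and 5.34 in prehypertrophic samples and 3.90, 3.51, 3.79 and 3.29 in proliferative samples (1.91 ± 0.03, no overlap). Its relative Map1lc3b had 3.70, 3.91, 3.74 and 3.74 in prehypertrophic samples and 2.20, 1.90, 1.91 and 1.93 in proliferative samples (1.80 ± 0.03, no overlap). The cathepsin Ctsz (-0.92 ± 0.03) and the hexosaminidase subunit Hexa (-0.85 ± 0.02) fell. Of 31 genes of glycolysis and hypoxia 18 fell, 5 rose and 8 did not pass (median -0.26). The oxygen sensor Egln3 fell by 1.99 (SE 0.08), hexokinase Hk1 by 1.17 (SE 0.03, but -0.16 with its probes averaged) and the glucose transporter Slc2a3 by 1.11 (SE 0.07, -0.31 with probes averaged), while the peptide hormone Adm rose by 2.13 (SE 0.08). Of 33 genes of oxidative phosphorylation 12 rose and 13 fell, none by 2-fold. Of 32 ribosomal protein genes 18 fell, 0 rose and 14 did not pass (median -0.24), and the largest change among them was that of Rps9 (-0.72 ± 0.02).

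Immediate-early and stress genes were higher in 17 of 29, lower in 5 and not past the test in 7 (median 0.24). The mechanosensitive factor Klf2 had levels of 6.08, 6.25, 6.37 and 5.77 in prehypertrophic samples, 1 saturated, and 3.64, 3.27, 3.54 and 2.79 in proliferative samples (2.91 ± 0.06, no overlap, 1.56 with probes averaged). The stress factor Atf3 rose by 2.19 (SE 0.15) and the mRNA-destabilising Zfp36 by 2.03 (SE 0.07). Egr1, another immediate-early factor, fell by 1.37 (SE 0.11) and the heat shock gene Hspa1b by 2.27 (SE 0.08, -1.18 with probes averaged).

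The direct and the indirect path gave similar changes from separate samples. Across 23917 features measured on both, the changes correlated at 0.878 and differed by a median of 0.0786 in size, on genes that are not independent replicates. The 2 direct arrays alone called 4240 of 26862 features (15.8%), the indirect arrays alone 4396 of 24148 (18.2%). Of 4045 features called on the direct arrays and measured on both paths, 99.6% had the same sign along the indirect path, against 82.2% of all features. The test of the difference between paths called 0 of 26801 features in limma (smallest adjusted p 0.794), with 1485 (5.54%) at an unadjusted p under 0.05. With 6 arrays it could hardly call even a large difference, such as that of Ucma (-1.61, adjusted p 0.822, limma). The 0 calls therefore do not show that the paths are equal.

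**Figure D4:**
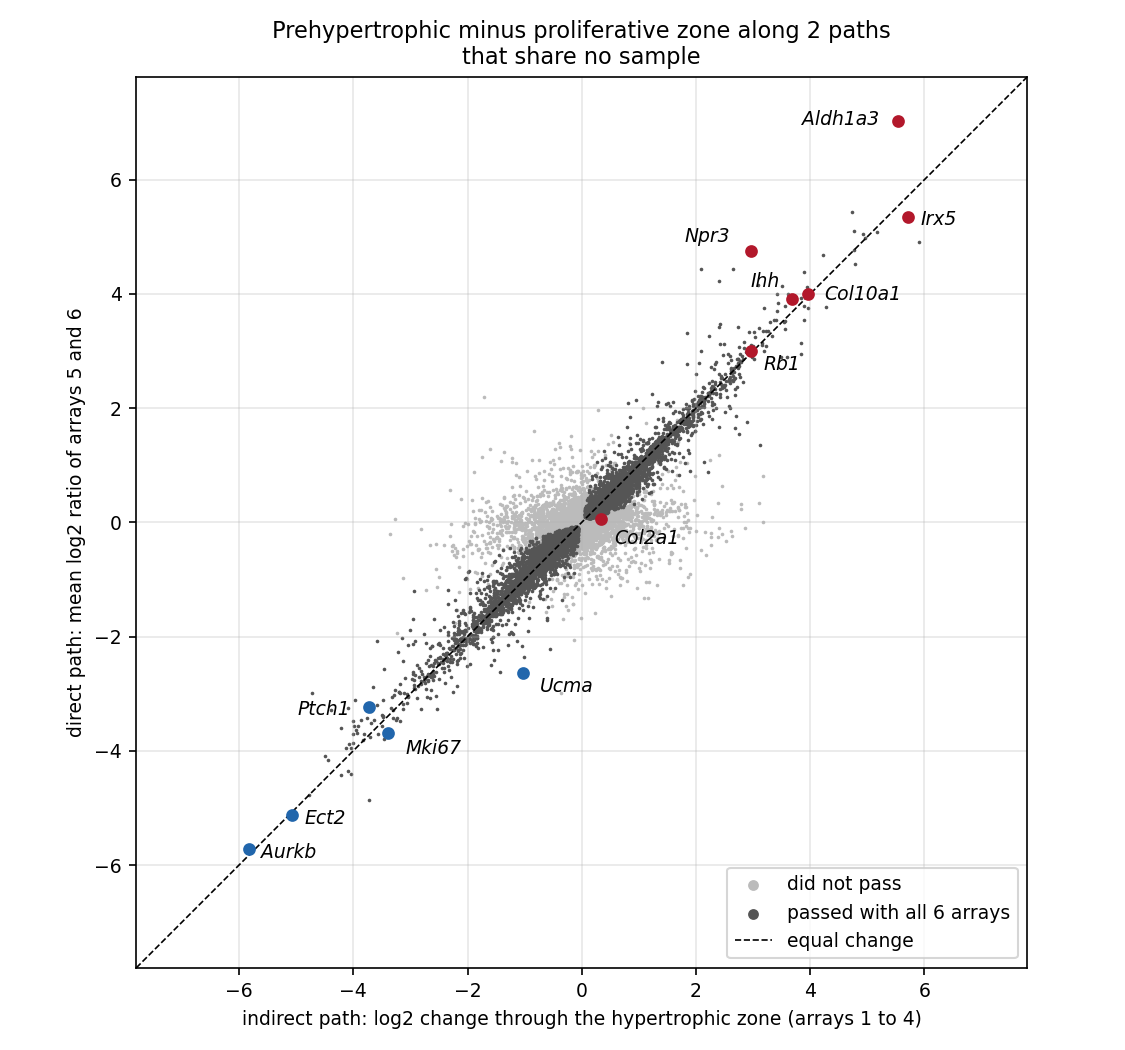
Log2 change (prehypertrophic minus proliferative zone) of 23917 features on the direct arrays 5 and 6 (vertical axis) against the path through the hypertrophic zone on arrays 1 to 4 (horizontal axis), dark where the fit to all 6 arrays passed. The dashed line marks equal change. Aurkb, Ihh, Col10a1 and Rb1 lie close to it, and Npr3, Aldh1a3 and Ucma lie off it. Col2a1, with saturated spots in both zones, lies near the origin.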

How the data were processed

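Signals of 12 samples were measured on 6 two-colour arrays. Each deposited file from the scanner holds the processed intensity of 1 channel, made with Agilent Feature Extraction 8.1.1.1, per the file headers. Its steps were background subtraction, spatial detrending and dye normalization. The deposited files' other values are flags of 0 or 1 per spot. A deposited table of log2 values, whose making no header or label records, was not used. Of its 12 columns 1 matched the scanner file of its own sample best, and all 12 matched by title order, so its column names and the scanner files' samples do not match.

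Ratios were normalized within arrays by loess (limma 3.58.1, R 4.3.3), with control and outlier-flagged spots at weight 0 and flagged ratios left out (735 on the direct arrays, 7249 in all). Probes above background (multiplier 2.6) in at least 4 samples were kept (40017 of 41174), and each gene was represented by its brightest probe. The model held zone and dye terms, with eBayes moderation (3 residual and 1.22 prior degrees of freedom), and was tested on simulated data. Gene symbols came from the array annotation (1 symbol for 32691 probes, none for 8483) and promoters from RefSeq's tables. Saturated spots compress ratios. Same-numbered samples deviated together (correlations 0.263 to 0.607, replicates 3 and 4 sharing an array).

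Members and gene lists were chosen with earlier results of these data known. The text names the 10 largest rises and falls with 1 sign on both direct arrays and the indirect path, up to 3 each way per list past 0.5, and 16 genes fixed by name. Other genes are said to have been chosen after their values were seen. Alternatives tried were other normalizations, filters, probe and outlier rules, fits without dye, with robust moderation, by single channels, and with arrays left out.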

Additional observations from a re-analysis of the deposited data

Results flagged for a closer look

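In 17 of 322 groups of 4 samples, from 161 named genes in 2 zones, the highest or lowest sample stood apart from the other 3 by more of the group's range than Dixon's 95% critical value for 4 samples. Chance alone gives about 1 in 20 such groups if they are independent. These groups share the same 8 samples, so a total of 17 does not show if the flags arose by chance. Prehypertrophic replicate 4 was the low one most often, at levels (log2 over the sample's 75th percentile) of 0.593 for Zfp521, 1.85 for Rps9, -1.52 for Hey1, 0.0298 for Notch2, 2.04 for Gpc4, -0.332 for Cth, 1.41 for Adamts1, 3.504 for Ebp, 5.77 for Trps1 and 0.72 for Irx5. The Trps1 spot was saturated in 1 prehypertrophic sample. In replicate 4 its level matched that of Chsy1 (5.77), which was saturated in all 4 prehypertrophic samples, so this low value lies at the ceiling of that sample. Prehypertrophic replicate 1 was the high one for the proliferation antigen Mki67 (1.96), the replication gene Uhrf1 (-1.14) and the stress gene Ier3 (-1.01). Among proliferative samples, replicate 1 was high for Col1a2 (6.03) and Map1lc3b (2.20), replicate 3 was low for Etv1 (-2.23) and replicate 4 was low for Hey1 (-0.807). None of these 17 outlying levels lay within the range of the other zone.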

How the results depend on the processing

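All 161 named genes kept their direction and side of the threshold with no loess, with median centring, without the filter on dim probes, with outlier-flagged spots, without the dye term, with robust moderation and in the separate-channel fit with the replicate block, which called 13330 features (13896 without the block) against 12483. Fewer arrays gave fewer calls. The direct arrays alone called 4240 (1750 higher, 2490 lower), where 3 named genes lost their call (Aldh1a1, Etv1 and Rdh10), and the indirect arrays alone 4396 (1948 higher, 2448 lower), where 20 lost theirs. Levels of single channels, 4 against 4 samples, called 6105 (2610 higher, 3495 lower). Leaving out an array gave 8768 to 11331 calls, with 4138 to 5654 higher and 4630 to 5709 lower, lowest without array 5. With a gene's probes averaged, 3 values turned sign, Rps6 (0.137) and Ptprc (-0.0392), which did not pass, and Sox9 (0.240, adjusted p 0.00707 in limma). There Col12a1, Col16a1, Hs6st2 and Lef1 did not pass, and 46 of the 77 named genes that passed and had several probes moved by over 1.5 times or turned. Sulf1 did not pass without array 2 (0.69) or array 3 (0.66), nor did Etv1 (-0.98) and Ctsk (-1.01) without array 5, Ucma (-1.89 and -1.60) without array 5 or 6, or Chsy1, Ctsk, Epb42, Ptprc and Sulf1 by single channels. Col2a1, with saturated spots in both zones, passed without array 6 (0.45), and Fgfr3 in the separate-channel fit without the block (-0.10). The causes were not tested. Normexp background correction was not run, since no raw signals were in the files used. Signal over background and saturation limit what the dimmest and brightest probes can show.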

Other observations

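Replicates 1 and 2 of both zones were on arrays with a hypertrophic sample, and replicates 3 and 4 were not. Levels of these pairs were compared after the data were seen. For 34 features at least 4 log2 units higher in the hypertrophic zone than in either other zone, the mean level of replicates 1 and 2 exceeded that of replicates 3 and 4 by a median of 0.59 in prehypertrophic samples (higher in 31 features) and of 0.59 in proliferative samples (higher in 30). For 260 features 2 to 3 units higher there, the medians were 0.31 and 0.29, for 87 features 3 to 4 units higher they were 0.48 and 0.55, and over all 23917 features 0.05 and 0.08. For 68 features 2 to 3 units lower in the hypertrophic zone they were 0.08 and 0.28, with replicates 1 and 2 higher in 49 and 67 features. For 10 features at least 3 units lower the medians were 0.25 and 0.34. So replicates 1 and 2 were also mostly higher for features that were low in the hypertrophic zone. Array partner and replicate pair cannot be told apart in this design. For the 34 features the change on the direct arrays minus that along the indirect path had a median of -0.14, against -0.01 over all features. The cause was not tested.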
